A study of Homo sapiens with 12 samples.

Results

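The genes described here are 10 members of the YAP and TEAD pathway (YAP1, WWTR1, TEAD1, TEAD4, LATS2, AJUBA, AMOTL2, CCN1, CCN2 and ANKRD1), taken by symbol from the 60623 genes of a deposited count table, and each symbol matched 1 row. The study asked how phosphorylation of the aryl hydrocarbon receptor (AHR), a ligand-activated transcription factor, at S489 by the kinase PLK1 alters lung adenocarcinoma cells. RNA came from 4 lines made from A549, an established human lung adenocarcinoma cell line: V had received a lentivirus with the empty vector, WT one with HA-tagged wild-type AHR, SA one with HA-AHR S489A, which cannot be phosphorylated at that residue, and SD one with HA-AHR S489D, a substitution meant to mimic phosphorylation. The vector was pLV-EF1a-IRES-Hygro, all 4 lines had been selected with hygromycin, and all kept their own AHR gene. Each line gave 3 libraries of poly(A) RNA, labelled as biological replicates. Nothing in the sources used here says whether they came from separate cultures, so p-values measure only the spread between these libraries. Every construct was carried by 1 line, so that its effect cannot be told apart from whatever else sets that line apart.

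YAP1 and its paralogue WWTR1 (also called TAZ) are transcriptional coactivators without a DNA-binding domain of their own. LATS kinases, the last step of the Hippo kinase cascade, phosphorylate them and so keep them out of the nucleus. When they do enter it, they bind TEAD proteins on DNA and raise the RNA of genes for matricellular proteins, cytoskeletal regulators and parts of the cascade itself, in epithelial cells mainly in response to cell density, attachment and tension. The libraries measured RNA only, and neither phosphorylation nor the place of YAP1 in the cell was among the measurements used here.

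CCN2, YAP1 and ANKRD1 had at least 1 copy of GGAATG, the hexamer that TEAD proteins bind, in the 250 bases before their RefSeq start sites. The stretches of CCN2 and YAP1 are shown because their RNA is compared between the lines below. They lie at chr6:131951373-131951622 (minus strand) for CCN2 and chr11:102110197-102110446 (plus strand) for YAP1 in GRCh38, outside the deposited span of each gene, are taken from RefSeq (GRCh38.p14) and read 5′ to 3′ up to the last base before the start site. Capitals mark the hexamer.
CCN2: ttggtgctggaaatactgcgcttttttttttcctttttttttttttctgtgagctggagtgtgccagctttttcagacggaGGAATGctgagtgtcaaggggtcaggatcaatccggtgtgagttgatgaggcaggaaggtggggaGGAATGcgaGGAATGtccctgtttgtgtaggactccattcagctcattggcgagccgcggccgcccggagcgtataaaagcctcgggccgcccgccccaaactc
YAP1: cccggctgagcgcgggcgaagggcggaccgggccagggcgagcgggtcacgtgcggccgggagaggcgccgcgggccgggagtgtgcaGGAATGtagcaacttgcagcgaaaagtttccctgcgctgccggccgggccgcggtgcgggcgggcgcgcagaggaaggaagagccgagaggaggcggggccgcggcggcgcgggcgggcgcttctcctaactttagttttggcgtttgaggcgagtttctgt

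CCN2 held 3 copies, with first bases 169, 104 and 95 bases before the start, ANKRD1 held 2, at 220 and 128 bases, and YAP1 held 1, at 162 bases. The deposited span of ANKRD1 ends at 90921276 on the minus strand, inside its window of 90921088 to 90921337, so the RefSeq start is not the 5′ end of the gene as counted. Of all 35116 RefSeq promoter windows of the same 250 bases, 11.9% held at least 1 copy of GGAATG or its reverse complement CATTCC, 0.94% at least 2 and 0.0826% at least 3. The members with a promoter entry numbered 7, with 10 start sites in all. AMOTL2 had CATTCC 69 bases before the second of its start sites, AJUBA had GGAATG 59 bases before its second, LATS2 had it 10 bases after the start, and WWTR1 had neither in its windows. The core that AHR binds with its partner ARNT, GCGTG or CACGC, was in 36.5% of all windows of 300 bases (250 before and 50 after the start). Among the members AMOTL2, WWTR1 and AJUBA held it, and CCN2, YAP1 and ANKRD1 did not in these windows, and no match of the core overlapped a match of the hexamer in the members. A match of letters is a description and not a binding site, and the map of motif matches places them all.

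**Figure D1:**
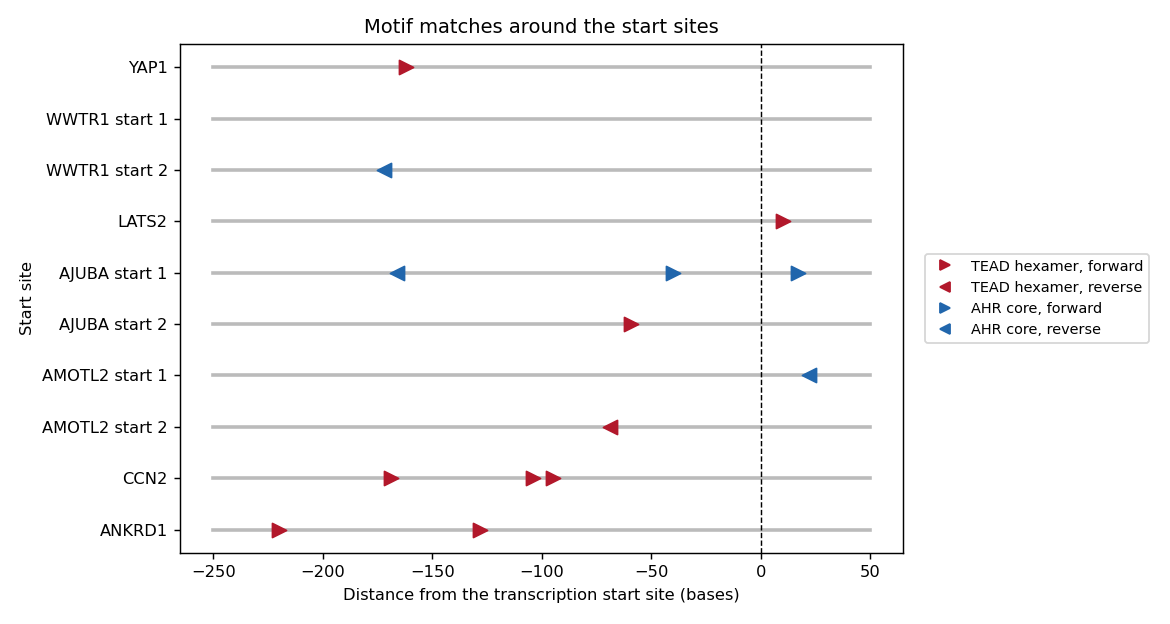
Positions of the TEAD hexamer (red) and the AHR core (blue) from 250 bases before to 50 bases after the 10 RefSeq start sites of 7 members; the x axis is the distance from the start in bases, and arrowheads point right for the forward and left for the reverse letters. CCN2 holds 3 red marks and no blue one, whereas the first start of AJUBA holds 3 blue marks.

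Counts per library totalled between 7844045 and 11765576, and the normalization factors lay between 0.989 and 1.01. Levels are given as CPM, which scales counts to the normalized library total. AHR was measured as a check of the labels. The V libraries held 69.0 ± 4.67 CPM of AHR (mean with standard deviation over 3 libraries, as for all such values), the WT libraries 266 ± 28.8, the SA libraries 224 ± 6.20 and the SD libraries 210 ± 9.86. AHR was therefore highest in WT, and SD fell short of WT by −0.35 on the log2 scale (adjusted p = 0.00774, edgeR), so that the amount of AHR RNA differed between the lines beside the substitution. The epithelial keratins KRT8 (3264 ± 56.0 CPM in V) and KRT18 (2730 ± 69.5) were abundant, while EPCAM (1.46 ± 0.248) and KRT19 (0.346 ± 0.213) were near 0, and the leukocyte marker PTPRC had no count in V, WT and SD.

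Read per length of the canonical GENCODE transcript, the members covered a wide range. In V, WWTR1 was highest at 41.6 CPM per kb, followed by AJUBA (32.5), TEAD1 (31.1), AMOTL2 (28.4), CCN1 (26.4), YAP1 (17.3), TEAD4 (15.5), LATS2 (5.84), CCN2 (4.79) and ANKRD1 (0.568). Of neighbours in this order, the V libraries overlapped between AJUBA and TEAD1, between AMOTL2 and CCN1, between YAP1 and TEAD4, and between LATS2 and CCN2. WWTR1 was thus the more abundant of the coactivators per length, and TEAD1 the more abundant of the 2 TEAD genes.

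The vector comparisons ask what the lines with added AHR shared or did not share against V. CCN1 and CCN2, which encode secreted matricellular proteins and are the most widely used readouts of YAP and TEAD activity, were higher in WT, in SA and in SD than in V. The rise was 1.52-fold to 1.79-fold for CCN2 and 1.19-fold to 1.30-fold for CCN1. The other 8 members had an adjusted p of 0.05 or more in each of the 3 comparisons. All 3 comparisons share the V libraries and so are not independent of one another.

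CCN2 (ENSG00000118523, chromosome 6, 131948176 to 131951372, minus strand, 5 exons), formerly CTGF, was at 13.6, 10.7 and 9.27 CPM in the V libraries. It was at 17.5, 17.3 and 16.3 CPM in WT, at 16.6, 18.1 and 17.5 in SA and at 18.8, 19.9 and 21.6 in SD. Each of the 9 libraries with added AHR lay above each V library, V was the line with the widest relative spread, and the SD libraries were the highest. Against V, the log2 fold change of CCN2 was 0.60 in WT (95% interval 0.31 to 0.90, adjusted p = 0.00933, edgeR's quasi-likelihood test, two-sided), 0.63 in SA (0.33 to 0.92, adjusted p = 0.00558) and 0.84 in SD (0.55 to 1.13, adjusted p = 3.00e-04). The WT call was lost without V replicate 3, the lowest V library (log2 fold change 0.48, adjusted p = 0.0690), and the calls of SA and SD survived the loss of any single library. Without the same V library, the SA call was kept only narrowly (log2 fold change 0.51, adjusted p = 0.0482, edgeR). CCN2 shares 278 of its 2338 exonic bases with LINC01013 on the other strand, a gene with no count in any library.

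CCN1 (ENSG00000142871, chromosome 1, 85580761 to 85583950, plus strand, 5 exons), formerly CYR61, was at 59.2, 65.0 and 56.2 CPM in V. It was at 85.8, 70.4 and 79.5 CPM in WT, at 81.0, 77.3 and 77.7 in SA and at 73.3, 68.3 and 73.7 in SD. Again every library with added AHR was above every V library, but here SD was the nearest to V. Against V, the log2 fold change of CCN1 was 0.38 in WT (95% interval 0.22 to 0.54, adjusted p = 0.00219, edgeR), 0.38 in SA (0.24 to 0.52, adjusted p = 6.83e-04) and 0.26 in SD (0.11 to 0.41, adjusted p = 0.0368). The calls in WT and SA held with each library left out. The call in SD did not, with adjusted p-values of 0.140 without V replicate 1, 0.213 without V replicate 3, 0.0807 without SD replicate 1, 0.0545 without SD replicate 2 and 0.104 without SD replicate 3, nor with DESeq2 (0.0791) or with the replicate number as a block (0.0661), while the direction was kept in all of these.

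The 2 called members were 2 of 10 in each comparison, all in the higher direction. Of all genes tested, 5.24% were called in WT against V (2.31% higher and 2.93% lower), 7.17% in SA against V (3.88% higher and 3.29% lower) and 5.41% in SD against V (2.92% higher and 2.49% lower). The median log2 fold change of the members was 0.17 for WT, 0.07 for SA and 0.06 for SD, beside medians of 0.00 over all genes tested. The plot of fold changes over V shows that the intervals of CCN1 and CCN2 lie to the right of 0 in all 3 lines. They were not alone in excluding 0. Before adjustment, 5 members had a p under 0.05 (edgeR) in WT, 4 in SA and 3 in SD, with CCN1 and CCN2 among them each time. The share of all genes with such a p was not counted.

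**Figure D2:**
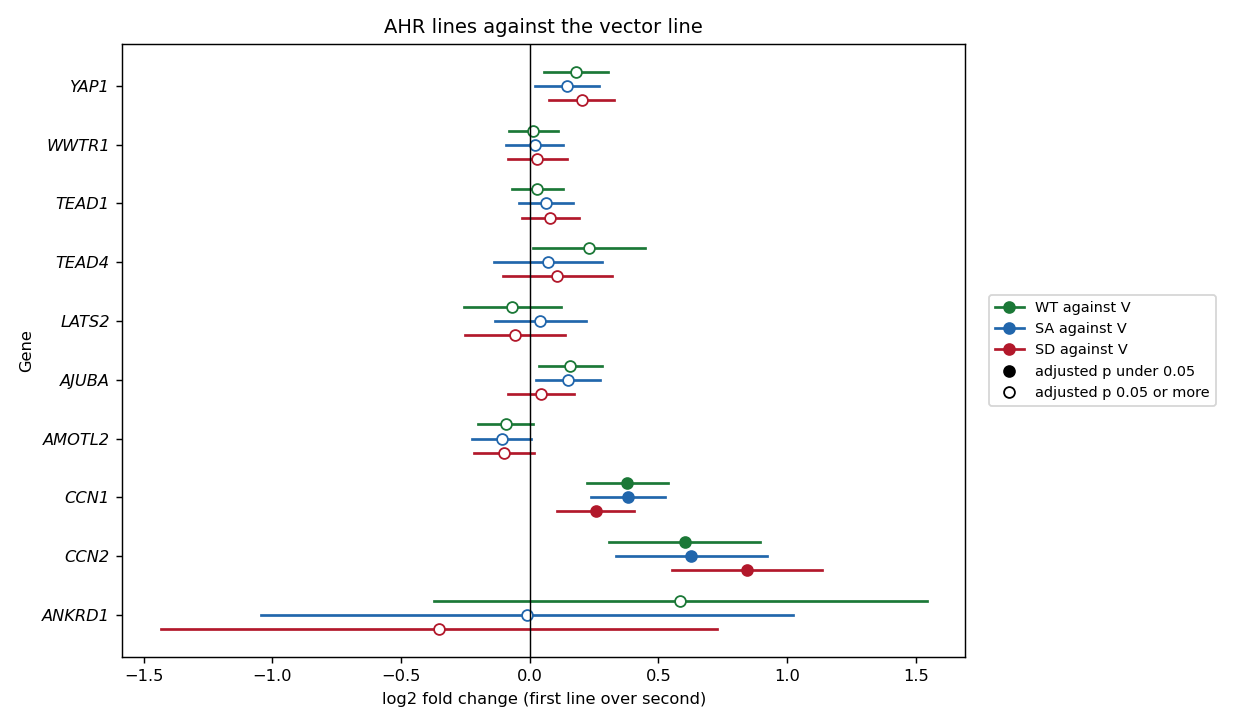
Log2 fold change of each member in WT, SA and SD over V (x axis), with the 95% interval as a line; filled points have an adjusted p under 0.05. CCN1 and CCN2 are the filled rows, and ANKRD1 has the widest intervals.

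Epithelial genes moved between the same lines. KRT8 fell by 0.33 on the log2 scale in WT, by 0.35 in SA and by 0.42 in SD, KRT18 fell by 0.37, 0.40 and 0.48, and CDH1, which encodes the adherens junction protein E-cadherin, fell by 0.60, 0.60 and 0.43 (all adjusted p under 0.05, edgeR). Of the 5 epithelial markers, 4 were tested, and 3 were called lower in each comparison. That was 75% of those tested, beside 2.93%, 3.29% and 2.49% of all genes called lower in WT, SA and SD. The remaining tested marker, EPCAM, was near 0 and had a negative but uncalled log2 fold change in each. The list summed to between 6059 and 6297 CPM per V library, between 4819 and 4861 per WT library, between 4654 and 4852 per SA library and between 4383 and 4644 per SD library. The 7 fibroblast markers summed to between 10.3 and 13.8 CPM per V library, 5.96 and 7.62 per WT library, 7.80 and 8.69 per SA library, and 7.61 and 10.4 per SD library, and COL1A1, most of that sum, was lower in WT (−0.79) and in SA (−0.60). In SD COL1A1 was at −0.50, which was not called, with an unadjusted p under 0.05 (edgeR). The 3 endothelial markers summed to at most 0.316 CPM. The 3 leukocyte markers summed to 21.7 to 28.4 CPM in V and 27.8 to 36.9 in the other lines, almost all of it CD68, which was higher in SA (0.36). The part of these changes in the CCN1 and CCN2 result was not tested, and in bulk RNA fewer cells of a type and less RNA per cell cannot be told apart.

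Among the coactivators, YAP1 (ENSG00000137693, chromosome 11, 102110447 to 102233424, plus strand) was at 95.5, 90.2 and 95.2 CPM in V and at 98.2, 115 and 105 CPM in WT. In SA it was at 101, 110 and 101 CPM and in SD at 103, 112 and 109 CPM. All 9 libraries with added AHR lay above all 3 V libraries, by a margin that was small beside the spread within WT. The log2 fold change of YAP1 over V was 0.18 in WT (adjusted p = 0.0848, edgeR), 0.14 in SA (adjusted p = 0.169) and 0.20 in SD (adjusted p = 0.0530), none past 0.05. Leaving out WT replicate 1 gave an adjusted p of 0.0383 in WT, and leaving out SD replicate 1 gave 0.0301 in SD, as the requirement of 10 or more counts in each library gave 0.0419 there. WWTR1 (chromosome 3, minus strand) lay between 203 and 217 CPM in V and between 198 and 225 CPM in the other 9 libraries, which overlapped those of V in each line, and its log2 fold change was at most 0.03.

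Because YAP1 went the same way in all 3 lines, the mean of WT, SA and SD was set against V in a fit of all 12 libraries, a comparison chosen after these values were seen, so that it summarises the pattern and is no independent test of it. The mean of the 3 lines was 1.13-fold that of V for YAP1 (95% interval 1.05 to 1.21, adjusted p = 0.0325, edgeR), for CCN1 1.26-fold (1.16 to 1.38, adjusted p = 6.08e-04) and for CCN2 1.61-fold (1.38 to 1.89, adjusted p = 9.43e-05). These were 3 of 10 members, and 7.79% of all 15453 genes tested were called (4% higher and 3.79% lower). The YAP1 call depended on single libraries, with an adjusted p of 0.0860, 0.165 and 0.100 without V replicate 1, 2 or 3, 0.0585 without WT replicate 2, 0.0600 without SA replicate 2 and 0.0594 without SD replicate 2. Calls of CCN1 and CCN2 held with each library left out. The 9 libraries lay above the 3 of V for YAP1, CCN1 and CCN2, as they did for 3.38% of all genes tested, and below for AMOTL2, as they did for 3.4%.

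**Figure D3:**
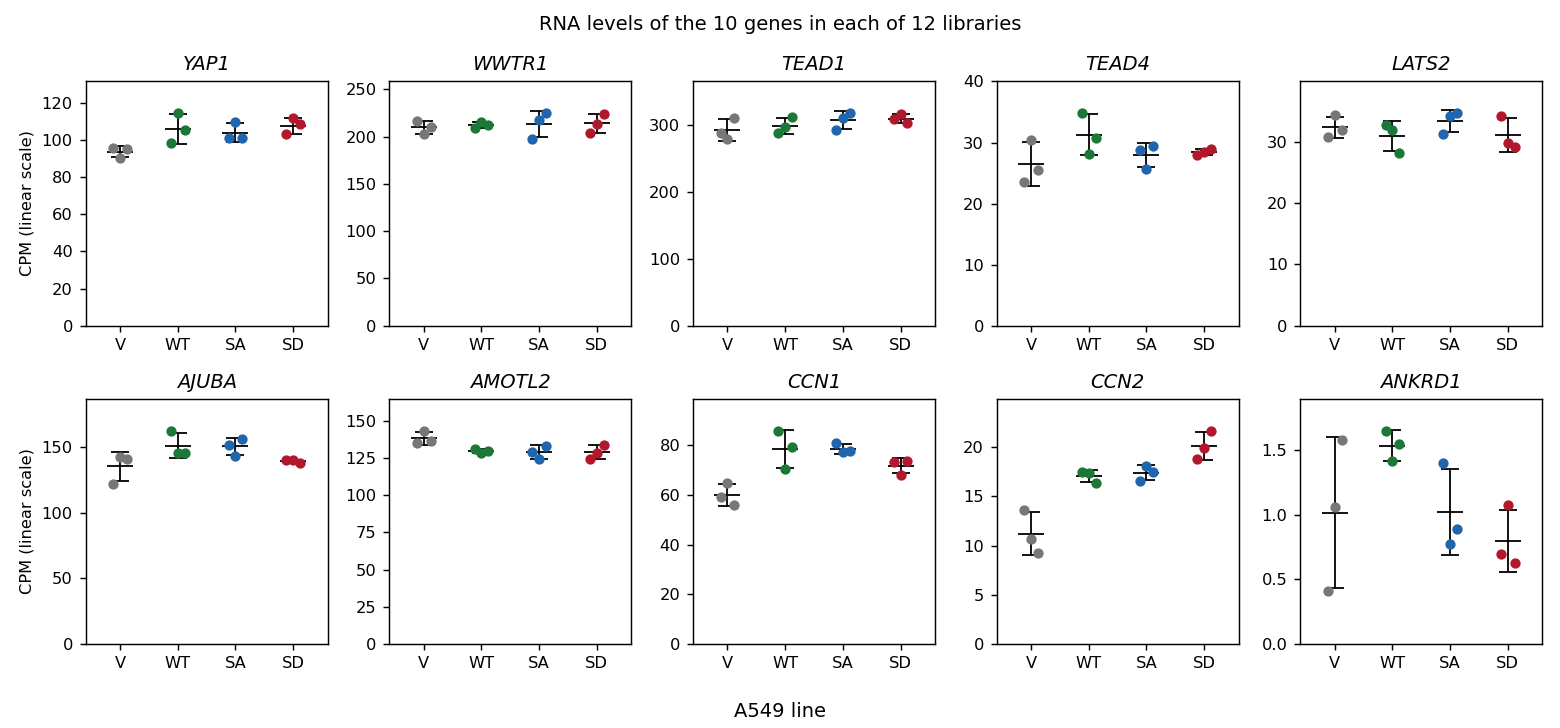
CPM of each member (y axis, linear, from 0) in the 3 libraries of V, WT, SA and SD (points), with the mean and standard deviation of each line in black. The V points of YAP1, CCN1 and CCN2 lie under all others of their panel, and those of AMOTL2 lie over them.

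The TEAD genes, which encode the DNA-binding partners, were near one level in all lines. TEAD1 (chromosome 11, plus strand) lay between 279 and 311 CPM in V and between 289 and 318 CPM in the other libraries, and its log2 fold change over V was 0.03 for WT, 0.06 for SA and 0.08 for SD. TEAD4 (chromosome 12, plus strand) was at 23.5, 30.4 and 25.5 CPM in V and at 34.8, 28.2 and 30.8 CPM in WT, which overlapped (log2 fold change 0.23, 95% interval 0.01 to 0.45, adjusted p = 0.248, edgeR). TEAD4 lay between 25.7 and 29.4 CPM in SA and between 28.0 and 29.0 CPM in SD.

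The inhibitors and adaptors of the pathway are themselves in part targets of YAP1 and TEAD. LATS2 (chromosome 13, minus strand), which encodes one of the kinases that phosphorylate YAP1, lay between 28.2 and 34.8 CPM over the 12 libraries, with libraries of the lines overlapping in each of the 6 comparisons. AMOTL2 (chromosome 3, minus strand), which encodes an angiomotin-like protein that binds YAP1 and holds it in the cytoplasm, was at 135, 143 and 137 CPM in V and between 124 and 134 CPM in the 9 libraries with added AHR. Its levels thus lay below V without overlap, but the difference was small: the log2 fold change was −0.09 for WT, −0.11 for SA and −0.10 for SD, and −0.10 for the 3 lines together (adjusted p = 0.180, edgeR). AJUBA (chromosome 14, minus strand), whose LIM-domain protein binds and inhibits LATS kinases, was at 122, 143 and 141 CPM in V, at 162, 146 and 146 in WT, at 152, 144 and 157 in SA and at 140, 140 and 138 in SD. Its WT and SA libraries were above those of V (log2 fold changes 0.16 and 0.15, adjusted p = 0.141 and 0.152, edgeR), and its SD libraries overlapped them. The share of all genes whose libraries separate like this in a pair of lines was not counted.

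ANKRD1 (ENSG00000148677, chromosome 10, minus strand), which encodes a nuclear ankyrin repeat protein and is a strong YAP target in many cells, had between 4 and 16 counts per library. It was at 0.409, 1.06 and 1.58 CPM in V, at 1.65, 1.41 and 1.55 in WT, at 1.40, 0.773 and 0.887 in SA and at 0.698, 1.07 and 0.626 in SD. V spanned almost the whole range, so no line stood apart from it. At this depth a 95% interval of the log2 fold change over V ran from −0.37 to 1.54 in WT and from −1.43 to 0.73 in SD, the widest intervals among the members.

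The comparisons between the AHR lines ask what differed with the residue S489. With edgeR, 0 members had an adjusted p under 0.05 in any of the 3 pairs (SD with WT, SD with SA, WT with SA), and DESeq2 gave 0 as well. Of all genes tested, 0.708% were called when SD was set against WT, 0.22% for SD against SA, and 0.0803% for WT against SA, so that counts of 0 among 10 members are near the background. Before adjustment, ANKRD1 alone had a p under 0.05, in the pair of SD with WT. Without ANKRD1, the 95% intervals of the members reached from −0.33 to 0.48 at their widest in SD against WT, from −0.30 to 0.45 in SD against SA and from −0.29 to 0.36 in WT against SA.

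CCN2 was the member with the largest positive difference in SD, with all 3 of its SD libraries above the WT libraries and above the SA libraries. How many of all genes separate 3 libraries from 3 in this way was not counted. Such separations, here and for AJUBA and ANKRD1 below, therefore only describe the libraries. On the log2 scale CCN2 in SD exceeded WT by 0.24 (95% interval −0.00 to 0.48, adjusted p = 0.474, edgeR) and SA by 0.21 (−0.02 to 0.45, adjusted p = 0.619). CCN1 went the other way, at −0.13 in SD against WT (−0.28 to 0.03, adjusted p = 0.590) and −0.13 in SD against SA (−0.27 to 0.01, adjusted p = 0.621). The CCN1 value in SD against WT rested on single WT libraries, at −0.06 without WT replicate 1 and −0.21 without WT replicate 2. AJUBA was at −0.12 and −0.11 in the same comparisons, with its 3 SD libraries below those of WT and of SA (adjusted p = 0.495 and 0.640, edgeR), and at −0.06 in SD against WT without WT replicate 1. None of these differences passed the test, and over all alternatives the lowest adjusted p of CCN2 in SD against WT was 0.401 and that of CCN1 was 0.337.

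ANKRD1 was lower in all 3 SD libraries than in all 3 WT libraries, with a log2 fold change of −0.94 (95% interval −1.88 to −0.01, adjusted p = 0.464, edgeR). It was too low to be tested in SD against SA, so 9 of 10 members were tested there. In WT against SA the 10 members lay between −0.11 (LATS2) and 0.60 (ANKRD1) on the log2 scale, with CCN1 at −0.00 and CCN2 at −0.03. YAP1, WWTR1, TEAD1 and AMOTL2 differed by at most 0.06 in any of these 3 comparisons.

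**Figure D4:**
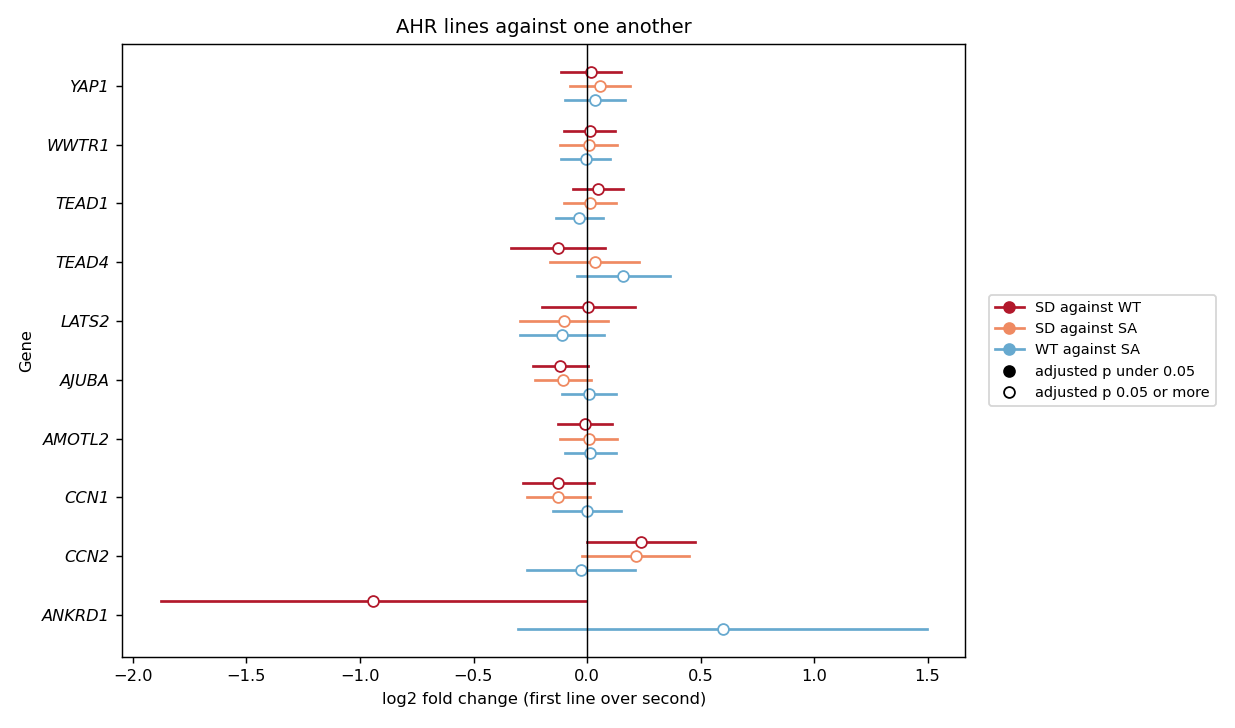
Log2 fold change of each member between the lines with added AHR (x axis), with the 95% interval as a line; open points have an adjusted p of 0.05 or more. All points are open, ANKRD1 is missing in SD against SA because it was not tested, and the intervals of CCN2 in SD against WT and SD against SA reach just below 0.

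A published signature of 22 YAP/TAZ targets, of which 5 are members, extends the readout. In WT against V, 5 of the 22 were higher and 2 lower, in SA against V 6 were higher and 2 lower, and in SD against V 5 were higher and 2 lower, with median log2 fold changes of 0.10, 0.08 and 0.04. That was 31.8%, 36.4% and 31.8% of the list called, beside 5.24%, 7.17% and 5.41% of all genes tested. Without the members, 3, 4 and 3 of 17 were higher and 2 were lower each time. NT5E, which encodes the ectonucleotidase CD73, was 2.02-fold higher than V in WT, 1.88-fold in SA and 1.80-fold in SD, and AXL, a receptor tyrosine kinase, was 1.57-fold, 1.57-fold and 1.33-fold higher. These fold changes were larger than that of CCN1 in each line, a difference that was not tested. RBMS3, an RNA-binding protein gene, was 2.47-fold higher in SD, at 5.88 CPM in SD and 2.37 CPM in V. CCDC80, which encodes an extracellular matrix protein, was the opposite case and fell by 0.58 on the log2 scale in WT, by 0.46 in SA and by 0.35 in SD, the last value being named after it was seen. The 22 genes therefore did not move in 1 direction.

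**Figure D5:**
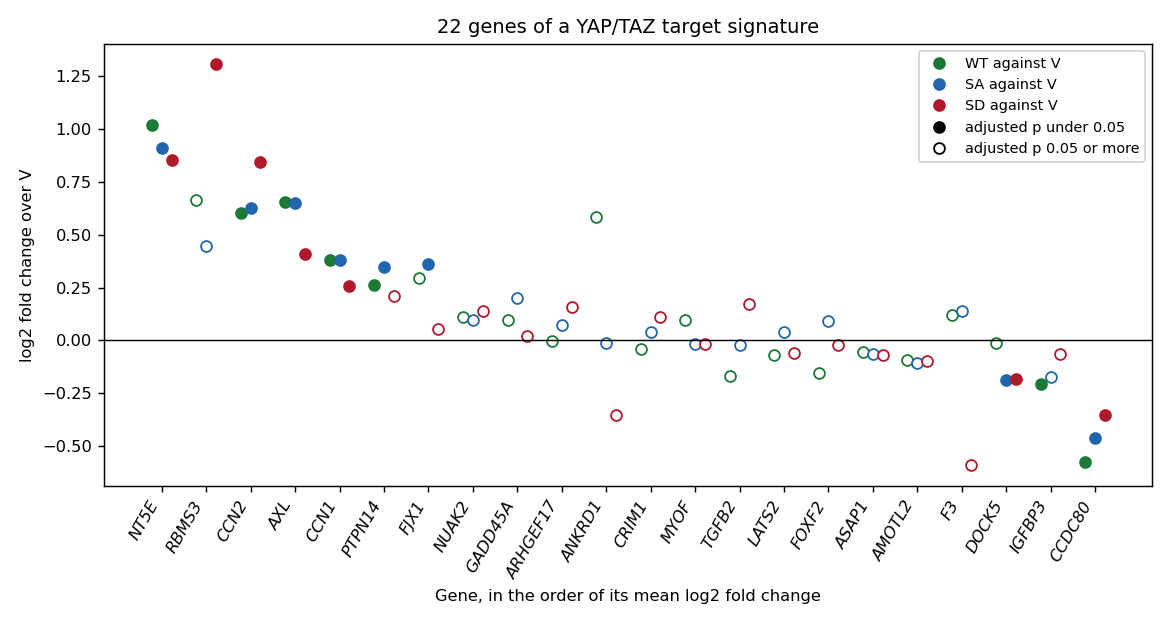
Log2 fold change over V (y axis) of the 22 signature genes in WT, SA and SD, ordered by their mean; filled points have an adjusted p under 0.05. NT5E, CCN2, AXL and CCN1 are filled and above 0 in all 3 lines, and CCDC80 is filled and below 0 in all 3.

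Between SD and WT, 1 signature gene was higher and 1 lower of 22 tested, and none was called when SD was set against SA (21 tested) or WT against SA (22 tested). The share of all genes called was 0.708%, 0.22% and 0.0803% in these comparisons. The higher gene was TGFB2, a TGF-beta ligand, at 160 ± 11.8 CPM in SD and 126 ± 2.85 in WT (log2 fold change 0.34, adjusted p = 0.00626, edgeR). The lower gene was AXL, at 382 ± 11.8 CPM in SD and 453 ± 23.3 in WT (−0.25, adjusted p = 0.0269). In V, TGFB2 was at 141 ± 6.42 CPM, and it was not called in SD against V, whereas AXL in SD was higher than in V (288 ± 5.92 CPM). Before adjustment, 11 of the 22 signature genes had a p under 0.05 (edgeR) in the pair of SD with WT. In the pair of SD with SA 4 had such a p, and in that of WT with SA 4. The log2 fold changes of the signature in SD against WT were positive for 10 genes and negative for 12. The share of all genes with an unadjusted p under 0.05 was not counted, so these counts only describe the list.

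Upstream of the members, 22 of 23 Hippo kinases and adaptors were tested. In WT against V, 1 was higher and 3 lower, in SA against V 2 were higher and 3 lower, and in SD against V 0 were higher and 2 lower. Called genes were 18.2%, 22.7% and 9.09% of those tested, beside 5.24%, 7.17% and 5.41% of all genes. LIMD1, which like AJUBA encodes a LIM protein that binds LATS kinases, fell by 0.25 in WT, by 0.30 in SA and by 0.29 in SD on the log2 scale. WWC1 (KIBRA), a scaffold that activates the cascade, fell by 0.27, 0.21 and 0.28. WWC3, of the same family, fell by 0.25 in WT. It averaged 90.6 ± 3.92 CPM over the V libraries, 76.4 ± 2.23 over WT, 78.3 ± 0.681 over SA and 85.3 ± 1.76 over SD, so its level in SA was near that in WT. PTPN14, a phosphatase that binds YAP1 and is also in the target signature, was higher in WT (0.26) and in SA (0.35), and STK25 was higher in SA (0.23). None of the 22 was called between the AHR lines. Before adjustment, 3 had a p under 0.05 when SD was set against WT, 3 against SA, and 1 when WT was set against SA. The share of all genes at that unadjusted limit was not counted.

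Of the other TEAD and VGLL genes, 4 of 6 were tested, and VGLL3, whose protein binds TEAD in place of YAP1, was the gene called in each vector comparison. That was 25% of those tested each time, beside 5.24% of all genes for WT, 7.17% for SA and 5.41% for SD. VGLL3 averaged 12.1 ± 1.61 CPM over the V libraries, 5.35 ± 0.478 over WT, 6.75 ± 1.57 over SA and 4.87 ± 0.448 over SD, and fell by 1.17, 0.84 and 1.30 on the log2 scale (adjusted p = 7.07e-05, 0.00381 and 2.30e-05, edgeR). Of the 4 other CCN genes, CCN5 was the 1 tested. CCN5 averaged 15.7 ± 1.60 CPM over the V libraries, 18.0 ± 2.03 over WT, 22.6 ± 1.10 over SA and 20.7 ± 1.37 over SD, and was higher than V in SA (0.52, adjusted p = 0.00402) and in SD (0.40, adjusted p = 0.0498), with an uncalled 0.20 in WT. No gene of either list was called between the AHR lines.

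Actin and SRF target genes, which respond to the same mechanical cues as YAP1, were tested in 19 of 21 cases. In WT against V 1 was higher (ZYX, which encodes the focal adhesion protein zyxin, 0.22), in SA against V 3 were higher (ZYX 0.26, TAGLN2 0.19 and TPM2 0.18), and in SD against V none was called, with 4 at an unadjusted p under 0.05. Called genes were 5.26%, 15.8% and 0% of those tested, beside 5.24%, 7.17% and 5.41% of all genes. The count in WT was thus near the background. None was called between the AHR lines. Of 10 proliferation genes, MKI67 was lower in SA than in V (−0.18) and AURKB lower in SD than in WT (−0.33, adjusted p = 0.0122), and none was called in the other comparisons. Each was 10% of the list, beside 7.17% of all genes tested in SA against V and 0.708% in SD against WT. All 10 had a negative log2 fold change in SD against WT (median −0.11, with 3 at an unadjusted p under 0.05) and in SD against V (median −0.10, with 4). In SD against SA 9 of the 10 were negative (median −0.10, with 3). The agreement of signs was not tested, and the share of all genes with an unadjusted p under 0.05 was not counted.

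The genes whose log2 CPM followed CCN1 most closely over the 12 libraries, among 10273 genes with a mean of at least 10 CPM, were MYH9, a non-muscle myosin heavy chain (Pearson r = 0.971), CIB1 (0.937) and AXL (0.929). Those nearest to CCN2 were LTBP2, a latent TGF-beta binding protein (0.923), RUNX2, a transcription factor (0.919), and CPA4, a carboxypeptidase (0.917). CCN1 and CCN2 correlated with each other at r = 0.686 over the same libraries. MYH9 averaged 1078 CPM over V, 1197 over WT, 1198 over SA and 1155 over SD, so its change over V was smaller than that of CCN1, and RUNX2 was at 7.63, 13.8, 15.1 and 18.5 CPM, in the same order of lines as CCN2. These correlations are descriptions over libraries that share lines and totals.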

How the data were processed

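RNA-seq of 12 libraries from 4 A549 lines, 3 per line, was analysed. The authors trimmed reads with Trimmomatic 0.39, mapped them to GRCh38 transcripts with RSEM, and deposited expected counts per gene and library, without normalization. Whether counting used strand is not given in the sources used here, so reads of antisense neighbours, such as those over 10.0% of the exonic bases of YAP1 and 9.1% of WWTR1, cannot be told apart. A second table, holding fold changes, p-values and q-values of the authors, was not used.

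Expected counts were rounded for tests in edgeR 4.0.16 (R 4.3.3): every 2 lines were compared on their own 6 libraries, with the genes kept by filterByExpr (minimum count 10, minimum total 15), TMM normalization, the two-sided quasi-likelihood test, and Benjamini-Hochberg adjustment over all genes tested. Genes with an adjusted p under 0.05 were called. CPM use TMM library sizes, and 3 counts of a library total correspond to 0.255 to 0.382 CPM. Counting error alone is covered by such limits, since no molecular identifiers are described. All 3 libraries of each line differed by more than sampling noise. RefSeq promoters and GENCODE v44 lengths were joined by symbol and gene ID.

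The members, gene lists and tests were chosen with earlier results of these data known. All members are named, with every listed gene called between AHR lines, up to 4 per list with the lowest adjusted p in each vector comparison, AHR, and the 3 genes most correlated with CCN1 and with CCN2. Alternatives were DESeq2 size factors, DESeq2 1.42.0, no filter, at least 10 counts in every library, 12 libraries in 1 fit, a replicate block and each library left out.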

Additional observations from a re-analysis of the deposited data

How the results depend on the processing

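Counts of called members were 0 in SD against WT, SD against SA and WT against SA under each alternative run. The 2 calls in SA against V were kept in number under each alternative. In SD against V, DESeq2 and the replicate block each gave 1 called member (CCN2) in place of 2, the requirement of 10 or more counts in each library gave 3 (with YAP1), and leaving out single libraries gave 1 to 2. In WT against V, leaving out single libraries gave 1 to 3, and in the comparison of the 3 AHR lines with V 2 to 3. Of 247 values of single genes under the alternatives, 230 kept their direction and their side of the threshold, 14 lost the call, 3 gained it and 0 reversed.

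Replicate numbers were not taken to pair the libraries: libraries of the same number in 2 lines deviated together with a correlation of −0.113 to 0.205, over 0.1 in 7 of 18 cases, and 11 of 18 correlated best with their own number. Between the AHR lines the correlations ran from 0.0415 to 0.205, and in the pairs with V from −0.113 to 0.133. The replicate block changed no count of called members other than that in SD against V. Over all genes it did change the calls between the AHR lines. With the block, 245 genes in place of 105 were called in SD against WT. In SD against SA 165 in place of 33 were called, and in WT against SA 25 in place of 12. The counts of called genes in the pathway and marker lists come from the fits without the block. At 4 to 16 counts per library, ANKRD1 limits what can be said of it beyond its wide intervals.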
